A study of Rattus norvegicus with 18 samples.

Results

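The genes described here are Nfe2l2, which encodes the transcription factor NRF2, its inhibitor gene Keap1, and 7 genes that NRF2 is known to drive: Gclc, Gclm, Txnrd1, Srxn1, Slc7a11, Gsr and Tkt. Members were found as the probe sets that the platform annotation pairs with 1 of these symbols and no other, and each gene was read on every array as the median of its probe sets. All 9 genes were measured, by 120 probe sets of the 1044112 in the table, and they are 9 of 16988 genes with a value. Values are on the log2 scale, so a difference of 1 is a doubling.

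The cells are WB-F344, a line of stem-like cells from rat liver, used confluent between passages 14 and 16. They received 100 nM PCB126 or 0.1% DMSO, the vehicle. They are a single line in culture. The groups are PCB126 for 6, 24 and 72 h and DMSO for 6, 24 and 72 h, with 3 arrays each and 18 in all. PCB126 is a dioxin-like polychlorinated biphenyl that binds the aryl hydrocarbon receptor (AhR) strongly, and each time has its own vehicle arrays. The labels call the repeats independent without saying what separated them, so the spread behind a p-value is that among these arrays and may be technical.

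In an unstressed cell KEAP1 holds NRF2 in the cytoplasm and presents it for ubiquitination and breakdown. Oxidants and electrophiles modify KEAP1, NRF2 then enters the nucleus, pairs with small MAF proteins and binds antioxidant response elements (ARE) of its target genes. In liver this pathway supplies glutathione, thioredoxin reduction and NADPH, and NRF2 is also known as an AhR target gene, so both pathways meet on genes such as Nqo1. AhR binds a xenobiotic response element (XRE) with the help of its partner ARNT.

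Promoter sequences are shown because both factors act on such short elements near gene starts. The RefSeq table (GRCr8) held 9 starts for 8 of the 9 genes, with 2 for Txnrd1. In the 250 bases before each start both strands were searched for the ARE core TGACNNNGC and the XRE core GCGTG, where N is any base. Elements outside these windows were not searched, so a window without a core does not show that the gene lacks one. Over the 33469 promoters of the table, 10.1% held the ARE core, 25.9% the XRE core and 3.39% both. Of the 9 member starts 2 held the ARE core, 4 the XRE core and 4 neither. The starts printed are those of the 4 genes with the clearest values below and the 1 start with both cores. Each is written 5′ to 3′ on the gene's strand, and capitals mark the matches. They lie at chr3:81029000-81029249 (minus strand, Nfe2l2), chr8:87510226-87510475 (plus, Gclc), chr2:213031885-213032134 (plus, Gclm), chr16:5729982-5730231 (plus, Tkt) and chr7:22755905-22756154 (minus, the second start of Txnrd1).
Nfe2l2: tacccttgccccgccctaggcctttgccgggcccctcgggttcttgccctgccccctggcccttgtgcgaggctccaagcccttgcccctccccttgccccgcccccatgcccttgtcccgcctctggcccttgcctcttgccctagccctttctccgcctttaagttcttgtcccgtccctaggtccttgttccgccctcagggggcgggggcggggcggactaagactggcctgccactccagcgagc
Gclc: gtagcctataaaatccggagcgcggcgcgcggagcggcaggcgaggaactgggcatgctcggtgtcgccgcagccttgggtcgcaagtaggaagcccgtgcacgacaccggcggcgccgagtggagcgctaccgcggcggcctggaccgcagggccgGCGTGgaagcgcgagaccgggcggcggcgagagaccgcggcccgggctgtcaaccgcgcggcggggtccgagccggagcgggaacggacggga
Gclm: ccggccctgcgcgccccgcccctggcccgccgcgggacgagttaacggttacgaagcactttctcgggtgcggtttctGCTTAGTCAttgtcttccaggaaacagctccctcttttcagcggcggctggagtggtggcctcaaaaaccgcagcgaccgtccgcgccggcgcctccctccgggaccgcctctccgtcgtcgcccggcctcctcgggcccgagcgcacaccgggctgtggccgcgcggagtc
Tkt: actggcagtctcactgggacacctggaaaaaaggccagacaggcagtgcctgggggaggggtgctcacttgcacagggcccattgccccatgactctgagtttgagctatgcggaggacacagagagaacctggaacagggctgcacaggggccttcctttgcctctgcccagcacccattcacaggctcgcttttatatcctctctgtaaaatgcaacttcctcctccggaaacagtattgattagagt
Txnrd1: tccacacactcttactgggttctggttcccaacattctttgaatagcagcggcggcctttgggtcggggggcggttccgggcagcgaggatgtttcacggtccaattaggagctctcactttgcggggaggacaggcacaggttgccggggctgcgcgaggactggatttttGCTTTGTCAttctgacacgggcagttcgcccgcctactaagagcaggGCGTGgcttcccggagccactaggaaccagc

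The Gclc window held 1 XRE core, from 93 to 89 bases before the start. In Gclm the ARE core TGACTAAGC lay on the other strand, 172 to 164 bases before the start, so the capitals show its complement. The second start of Txnrd1 held the ARE core TGACAAAGC on the other strand, from 78 to 70 bases before the start, and 1 XRE core from 31 to 27. Windows of Keap1 and Srxn1 held 2 XRE cores each, and those of Nfe2l2, Tkt, Slc7a11 and the first start of Txnrd1 held neither motif. The cores overlapped in none of these windows.

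Array medians over the 16988 genes lay between 6.19 and 6.54. The relative log expression of replicates 1 and 2 of PCB126 at 72 h spread more widely than elsewhere, with interquartile ranges of 0.461 and 0.475 against 0.275 to 0.368 on the other 16 arrays. Cell markers were read against the median probe set level of 4.03. The epithelial genes Krt8 (mean 8.09), Krt19 (6.09), Cdh1 (4.71) and Krt18 (4.58) stood above it and Epcam (2.25) below. That level is over all probe sets and lies below the array medians of the genes. Krt19, Cdh1 and Krt18 stood at percentiles 47.0, 30.6 and 28.6 among all genes. Of 4 measured hepatocyte markers Alb (3.47) was below 4.03, and Ttr (4.38), Hnf4a (5.20) and Cyp2e1 (9.77) were above it. Cd68 (4.63), Pecam1 (4.97) and Cdh5 (4.48) were above it too, so a value above it does not by itself show expression. Of 5 blood and endothelial markers Ptprc (3.03) and Hbb (2.14) were below it, 0 of the 5 were called by limma between PCB126 and DMSO at 6, 24 or 72 h (0, 1 and 0 at an unadjusted p under 0.05), and the array means of the list overlapped at each time. The mesenchymal genes Vim, Col1a1, Col3a1 and Pdgfrb had means of 12.6, 10.8, 10.9 and 5.77. The 4 hepatocyte markers averaged 5.35 to 5.65 on PCB126 arrays and 5.88 to 6.20 on DMSO arrays at 24 h, and 5.26 to 5.43 against 5.75 to 6.21 at 72 h, where Cyp2e1, a cytochrome P450, was the 1 called lower (-1.23 and -2.67). The 5 epithelial markers averaged 4.86 to 5.08 with PCB126 and 5.22 to 5.31 in DMSO at 24 h, with 2 lower calls, and overlapped at 6 h (1 lower call) and at 72 h (1 higher, 1 lower). The 4 mesenchymal markers averaged 9.61 to 9.72 with PCB126 and 9.74 or more in DMSO at 72 h (1 higher and 1 lower call), and overlapped at 6 h (0 calls) and 24 h (1 higher call). Single differences at 72 h ran from -1.37 to 1.08 in the epithelial list and from -1.22 to 1.15 in the mesenchymal list. Over all genes 0.241%, 3.14% and 4.14% were called lower at 6, 24 and 72 h, and 0.253%, 1.7% and 3.3% higher. The part of these markers in the results below was not tested. In RNA from whole cultures, fewer cells of a type and less RNA per cell cannot be told apart. Of 7 AhR genes 5 were higher with PCB126 at each time, among them Cyp1a1 with 2.90, 5.55 and 6.22 at 6, 24 and 72 h and Aldh3a1 with 4.63, 4.43 and 5.91 (log2 differences). The others were Cyp1b1 (1.89, 2.61 and 2.58), Tiparp (1.27, 1.22 and 1.28) and Ahrr (1.23, 1.82 and 1.73). Ahr and Arnt were called at none of these times.

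With PCB126, Nfe2l2 and the glutathione synthesis gene Gclc were higher than in DMSO at 24 h. At 72 h Gclc and the pentose phosphate gene Tkt were higher than in DMSO, and each difference was by a factor under 2. Tkt averaged 10.89 at 6 h and 10.85 at 72 h with PCB126, and 10.82 and 10.40 in DMSO. Limma called 0 of the 9 genes at 6 h, 2 higher at 24 h and 2 higher at 72 h, and 0 lower at these 3 times (adjusted p under 0.05 over all genes). Over all genes the share called higher was 0.253% at 6 h, 1.7% at 24 h and 3.3% at 72 h, and the share called lower was 0.241%, 3.14% and 4.14%. At an unadjusted p under 0.05 there were 1, 2 and 4 members, beside 8.31%, 15.4% and 18.6% of all genes. Their median difference was 0.07 at 6 h, 0.18 at 24 h and 0.17 at 72 h, beside -0.01, -0.02 and 0.00 over all genes. Members above 0 numbered 6, 7 and 8 of 9, beside 48.8%, 46.5% and 50.3% of all genes. Of 19 other NRF2 targets read below 11, 6 and 7 were above 0, and of 16 glutathione genes 12, 5 and 8. The members whose 3 PCB126 arrays all lay above the 3 DMSO arrays numbered 2, 2 and 4 of 9, where the share over all genes was 7.05%, 9.11% and 9.52%. As the members were chosen with earlier results of these data known, these shares are no test of the 9 as a set.

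**Figure D1:**
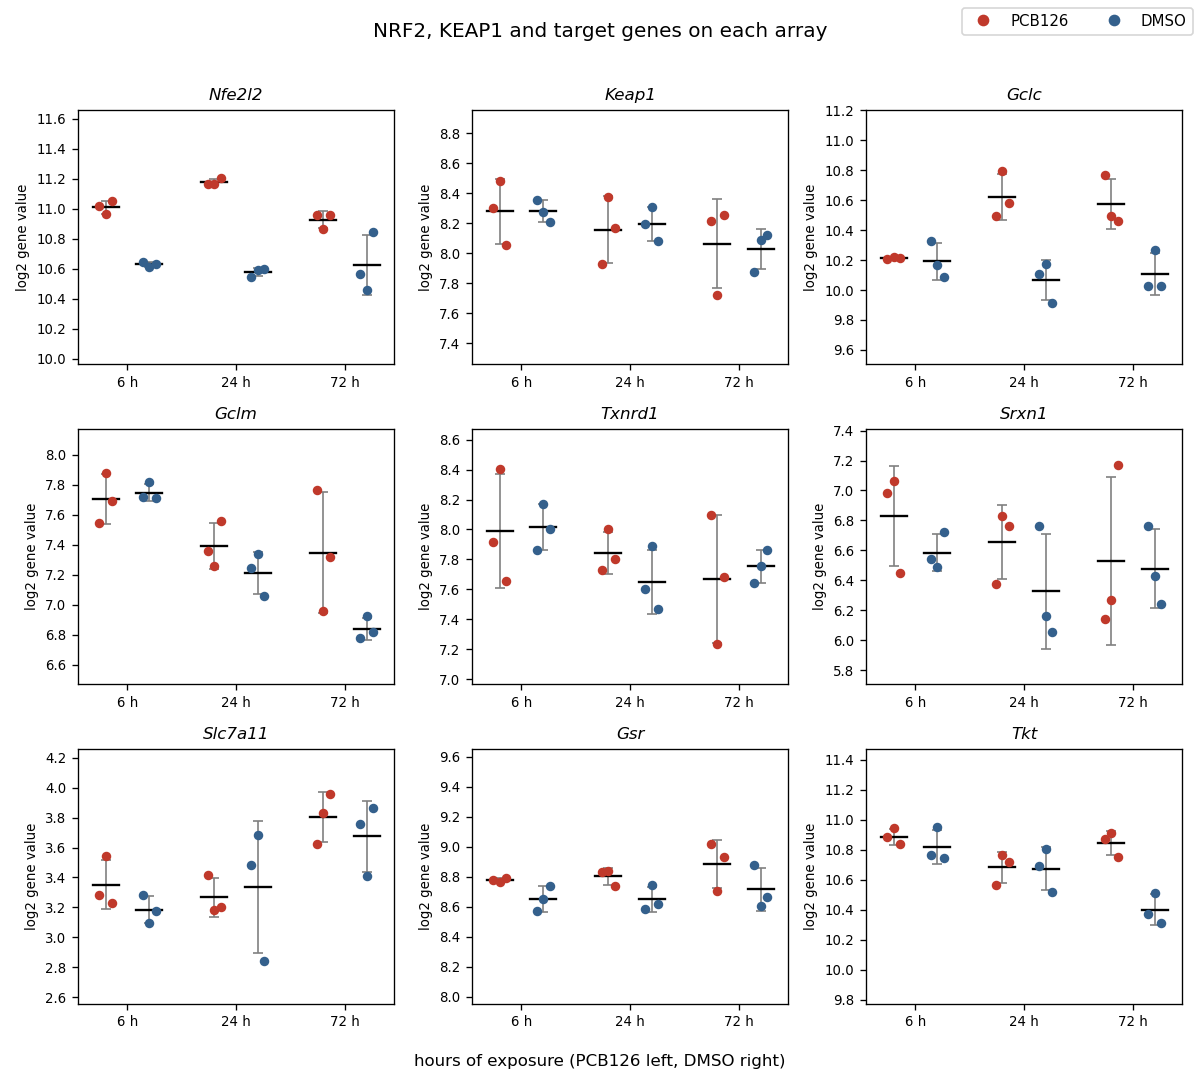
Log2 gene values (vertical axis, every panel spanning the same range of units) of the 9 genes on each of the 18 arrays, by hours of exposure, with PCB126 in red left of DMSO in blue. Points are arrays, black lines group means and grey bars SDs (n = 3). The PCB126 points of Nfe2l2 lie above the DMSO points at all 3 times, those of Gclc at 24 and 72 h, and those of Gclm and Tkt at 72 h.

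Nfe2l2, the transcription factor gene itself, stood higher on every PCB126 array than on every DMSO array of the same time. At 6 h the PCB126 arrays gave 11.02, 10.96 and 11.05, against 10.65, 10.61 and 10.63 in DMSO. The 2 groups were separate and narrow, with a difference of 0.38 (SE 0.105), which did not pass (limma, adjusted p = 0.183). At 24 h the values were 11.16, 11.16 and 11.20 with PCB126, against 10.55, 10.59 and 10.60 in DMSO. The difference of 0.60 (SE 0.105, limma adjusted p = 0.00246) is a 1.51-fold rise (95% interval 1.30 to 1.77), larger than the spread within either group. Under the 8 other settings it was 0.50 to 0.64 and stayed called (limma adjusted p up to 0.0393). The median difference over its 6 probe sets was smaller, at 0.47. At 72 h PCB126 gave 10.96, 10.87 and 10.96, against 10.57, 10.46 and 10.85 in DMSO. The third DMSO array came just below the lowest PCB126 array, and the difference of 0.31 did not pass (adjusted p = 0.103). With 1 of the 6 arrays left out it was 0.22 to 0.42 at 72 h (adjusted p from 0.0261, without DMSO replicate 3, to 0.339), and 0.36 to 0.40 at 6 h (adjusted p from 0.293 to 0.504). With the mean over probe sets in place of the median, Nfe2l2 was called at 6 h (0.39, adjusted p = 0.02) and at 72 h (0.26, adjusted p = 0.0396), and with an intensity trend at 72 h (adjusted p = 0.0404). With the compared groups alone the adjusted p was 0.334 at 6 h and 0.468 at 72 h.

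In order of level, Nfe2l2 was highest with PCB126 at 24 h (11.18 ± 0.02), then at 6 h (11.01 ± 0.04) and at 72 h (10.93 ± 0.05; SD, n = 3 arrays). DMSO at 6 h (10.63 ± 0.02), at 72 h (10.62 ± 0.20) and at 24 h (10.58 ± 0.03) followed, and the ranges of neighbours among these 3 overlapped. No neighbours among the upper 4 groups overlapped, PCB126 at 6 h and at 72 h by a narrow margin. The F-test of whether its PCB126 effect differed between times gave an adjusted p of 0.815. The 5 genes whose centred profile over the 18 arrays lay nearest to that of Nfe2l2, among 14806 genes with at least 4 probe sets, were Nedd9, Hibadh, Rhbdd2, Ttll4 and Enoph1. Their root mean square difference from it was 0.115 to 0.134, beside a median of 0.340 over these genes. Among the members Gclc (0.198) came nearest and Gsr next, with 209 and 221 genes nearer than they, and Slc7a11 (0.377) was farthest. These distances are a description of arrays that share their groups.

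Keap1, the inhibitor of NRF2, had overlapping groups at each time. With PCB126 it averaged 8.28 ± 0.22 at 6 h, 8.16 ± 0.22 at 24 h and 8.06 ± 0.30 at 72 h. In DMSO it averaged 8.28 ± 0.07, 8.19 ± 0.12 and 8.03 ± 0.13 (SD, n = 3 arrays each). The differences were 0.00, -0.04 and 0.04, with 95% intervals that reached from -0.38 to 0.38 over the 3 times.

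Gclc encodes the catalytic subunit of glutamate-cysteine ligase, the rate-limiting enzyme of glutathione synthesis, and was higher from 24 h on. At 6 h it had 10.21, 10.22 and 10.21 with PCB126, against 10.32, 10.16 and 10.09 in DMSO. The PCB126 values lay inside the DMSO range (difference 0.02, limma adjusted p = 0.982). At 24 h PCB126 arrays had 10.49, 10.79 and 10.58, against 10.11, 10.17 and 9.92 in DMSO. At 72 h they had 10.77, 10.50 and 10.46, against 10.03, 10.27 and 10.03 in DMSO. The groups were separate at both times, with a 1.47-fold rise at 24 h (difference 0.56, SE 0.126, adjusted p = 0.016) and a 1.38-fold rise at 72 h (0.47, SE 0.126, adjusted p = 0.0321). Calls at 24 h were lost without DMSO replicate 1 (adjusted p = 0.0502), DMSO replicate 3 (0.0828) or PCB126 replicate 2 (0.0795). At 72 h they were lost without DMSO replicate 1 (0.12), DMSO replicate 3 (0.115) or PCB126 replicate 1 (0.12), and with the 6 compared arrays alone neither time passed (0.0993 and 0.235).

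The change of Gclc between 6 and 24 h was the largest among the members by size (effect at 24 h minus 6 h 0.53, SE 0.179, adjusted p = 0.421). By the F-test over the 3 times, 0 of 9 members differed between times (limma, adjusted p under 0.05), and 2 had an unadjusted p under 0.05, Gclc (0.0191, adjusted 0.418) and Tkt (0.0291, adjusted 0.477). Over all genes 0.565% were called by that test. PCB126 at 24 h (10.62 ± 0.15) and at 72 h (10.57 ± 0.17) overlapped in range, and both stood above PCB126 at 6 h (10.21) and the DMSO groups (10.07 to 10.19), which overlapped in turn.

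Gclm encodes the modifier subunit of the same enzyme. At 6 h it had 7.55, 7.88 and 7.69 with PCB126, against 7.72, 7.82 and 7.71 in DMSO. At 24 h it had 7.36, 7.26 and 7.56 with PCB126, against 7.24, 7.34 and 7.06 in DMSO. The groups overlapped at both times. At 72 h PCB126 gave 7.77, 6.96 and 7.32, against 6.78, 6.92 and 6.82 in DMSO. The groups were separate by a narrow margin, with the PCB126 arrays wide apart, and the difference of 0.51 (SE 0.167) did not pass (limma, adjusted p = 0.0828). With 1 of the 6 arrays left out it was 0.30 (without PCB126 replicate 1, adjusted p = 0.291) to 0.71 (without PCB126 replicate 2, adjusted p = 0.0106). Without PCB126 replicate 2 alone among these was it called. The compared groups alone gave an adjusted p of 0.341, while Gclm was called with arrays centred on the median of the genes (0.53, adjusted p = 0.0267) and with quantile normalisation of the gene values (0.53, adjusted p = 0.0204).

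In DMSO alone Gclm was lower at 72 h. It averaged 7.75 ± 0.06 at 6 h, 7.21 ± 0.14 at 24 h and 6.84 ± 0.08 at 72 h (SD, n = 3 arrays each) in DMSO, and the 3 ranges were separate. At 72 h against 6 h the log2 difference was -0.91 (SE 0.167, limma adjusted p = 0.00731), and at 24 h against 6 h it was -0.54 (adjusted p = 0.569). With the mean over probe sets the difference was -0.59 at 72 h (adjusted p = 0.052) and -0.16 at 24 h. In DMSO the group means of the gene were those of 1 of its 9 probe sets. The median difference over the 9 was -0.54 at 72 h and -0.11 at 24 h. The DMSO 72 h arrays enter this comparison and the one with PCB126, so a low value there moves both.

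**Figure D2:**
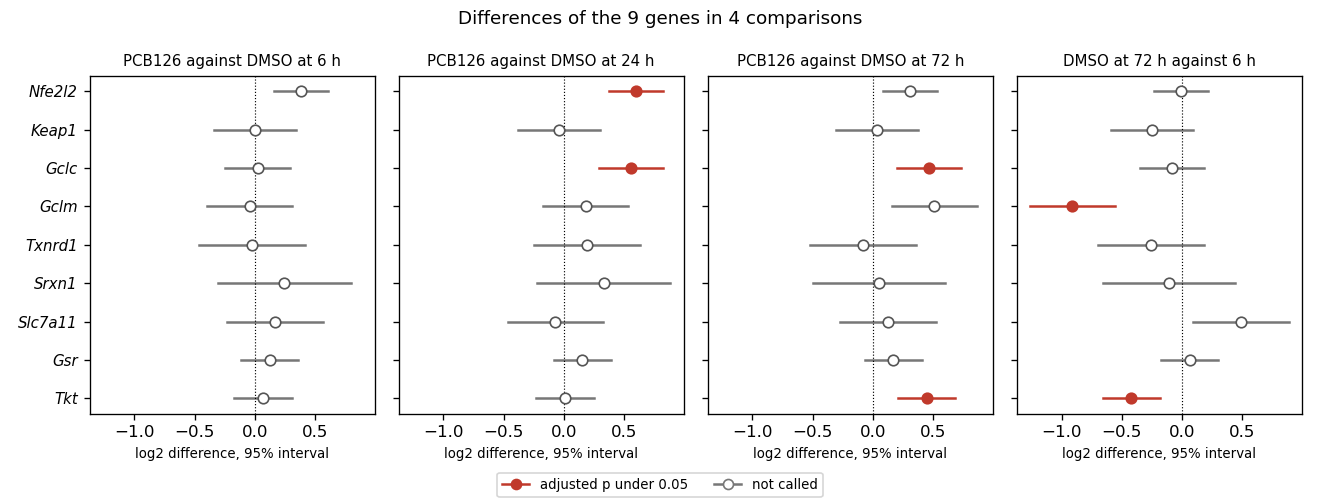
Log2 differences with 95% intervals (horizontal axis) of the 9 genes between PCB126 and DMSO at 6, 24 and 72 h, and between DMSO at 72 h and at 6 h. Filled red points passed an adjusted p under 0.05: Nfe2l2 and Gclc at 24 h, Gclc and Tkt at 72 h, and Gclm and Tkt below 0 in DMSO.

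Tkt encodes transketolase of the nonoxidative pentose phosphate pathway, which links sugar phosphates to the supply of NADPH. At 6 h it averaged 10.89 ± 0.05 with PCB126 and 10.82 ± 0.11 in DMSO. At 24 h it averaged 10.68 ± 0.11 with PCB126 and 10.67 ± 0.14 in DMSO (SD, n = 3 arrays each), and the groups overlapped at both times. At 72 h the PCB126 arrays had 10.87, 10.91 and 10.75, against 10.37, 10.51 and 10.31 in DMSO. The groups were separate by more than the spread within either, 1.36-fold higher with PCB126 than in DMSO (difference 0.45, SE 0.113, limma adjusted p = 0.0213). The call was lost without DMSO 72 h replicate 1 (adjusted p = 0.0727) or 3 (0.0882), without PCB126 72 h replicate 1 (0.0533) or 2 (0.0647), and with the 6 compared arrays alone (0.205).

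In DMSO, Tkt was lower at 72 h (10.40 ± 0.10) than at 6 h (10.82 ± 0.11), with a difference of -0.42 (SE 0.113, adjusted p = 0.0464). The level with PCB126 at 72 h (10.85 ± 0.08) overlapped in range with DMSO at 6 h, so the gap at 72 h stood beside a lower vehicle level. That call was lost without any 1 of the 6 compared arrays (adjusted p from 0.0522 to 0.21). It was -0.27 (0.203) with centred arrays, -0.41 (0.064) with quantile normalisation and -0.42 (0.141) with the compared arrays alone. In DMSO at 72 h against 6 h, 2 of 9 members were lower and 0 higher, where 3.27% of all genes were called lower and 0.865% higher. Arrays were separate and lower for 3 members (Keap1, Gclm and Tkt) and separate and higher for Slc7a11, beside 18.6% and 7.43% of all genes. The share of higher genes among all calls of that comparison was 20.9%, and 58.8% with centred arrays, which gave a median over all genes of 0.10 in place of -0.05. Relative to that median Gclm stood at -0.86 and Tkt at -0.37 in both settings. At 24 h against 6 h limma called 0 of the 9 members and 0 of the 16988 genes (4 with an intensity trend). At an unadjusted p under 0.05 it had 1 member, Gclm, and 987 genes (5.81%), and 2 members (Nfe2l2 and Gclm) and 7.46% of all genes were separate and lower.

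The genes of thioredoxin and cystine supply did not pass between PCB126 and DMSO at any of the 3 times. Txnrd1, the cytosolic thioredoxin reductase, averaged 7.99 ± 0.38, 7.85 ± 0.14 and 7.67 ± 0.43 with PCB126 at 6, 24 and 72 h. In DMSO it averaged 8.01 ± 0.15, 7.65 ± 0.21 and 7.75 ± 0.11 (SD, n = 3 arrays each). Its differences of -0.02, 0.19 and -0.08 were within the spread of the arrays, and the 95% interval at 24 h ran from 0.842-fold to 1.55-fold.

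Srxn1, sulfiredoxin, which repairs overoxidised peroxiredoxins, had the widest errors of the 9. It averaged 6.83 ± 0.33, 6.66 ± 0.25 and 6.53 ± 0.56 with PCB126 at 6, 24 and 72 h, against 6.58 ± 0.12, 6.33 ± 0.38 and 6.48 ± 0.26 in DMSO. The groups overlapped at each time, and its standard error of 0.259 left an interval of 0.858-fold to 1.84-fold at 24 h. Its sign turned with the mean over probe sets at 6, 24 and 72 h (-0.03, -0.11 and -0.07).

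Slc7a11, the light chain of the cystine-glutamate exchanger xCT, was dim. Of its 19 probe sets 6 had a mean above the median probe set level of 4.03. It averaged 3.35 ± 0.17, 3.27 ± 0.13 and 3.80 ± 0.17 with PCB126 at 6, 24 and 72 h, against 3.19 ± 0.09, 3.34 ± 0.44 and 3.68 ± 0.24 in DMSO. The groups overlapped at each time. Its DMSO arrays at 72 h all lay above those at 6 h, with a difference of 0.49 that did not pass (limma adjusted p = 0.16).

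Gsr, glutathione reductase, which returns oxidised glutathione to its reduced form, stood slightly higher with PCB126 at each time without passing. At 6 h the PCB126 arrays had 8.78, 8.77 and 8.79, against 8.57, 8.65 and 8.74 in DMSO, so the groups were separate by a small margin. The differences were 0.12, 0.15 and 0.17 at 6, 24 and 72 h, with 95% intervals that reached from -0.11 to 0.41 over the 3 times.

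Single probe sets showed how evenly each gene moved. All 6 probe sets of Nfe2l2 were above 0 at each time, by 0.30 or more at 6 h, 0.35 or more at 24 h and 0.15 or more at 72 h, although limma over the 223110 probe sets called none of them. Their groups were separate for 4, 5 and 4 of the 6, and over all probe sets at 6 h 5.43% were separate and higher and 0.0596% called higher. All 21 probe sets of Gclc were above 0 at 24 h, from 0.15 to 0.96, and at 72 h, where the lowest was at 0.06. At 24 h 17 of them had separate groups and 5 were called, and at 72 h 14 and 1. Over all probe sets 8.03% were separate and higher at 24 h with 0.681% called higher, and 7.98% and 1.57% at 72 h.

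The 16 probe sets of Tkt were all above 0 at 72 h (0.19 to 0.54), 11 of them with separate groups, while at 6 h 10 of 16 were above 0. Gclm was uneven at 24 h. There 4 of its 9 probe sets were above 0 and their median difference was -0.08, where the difference of its gene values was 0.18. At 72 h 8 of 9 were above 0, with a median of 0.43. In DMSO at 72 h against 6 h 8 of the 9 Gclm probe sets were below 0, 6 were separate and 2 were called lower. Of the 2 called, 1 was the probe set whose DMSO means equal those of the gene. All 16 of Tkt were below 0 and 13 separate, with 0 called, beside 17.6% separate and lower and 1.09% called lower over all probe sets. Srxn1 had 4 of 11 probe sets above 0 at 24 h, and Txnrd1 5 of 18 at 72 h. The probe sets of a gene share its arrays and are not replicates of the treatment.

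**Figure D3:**
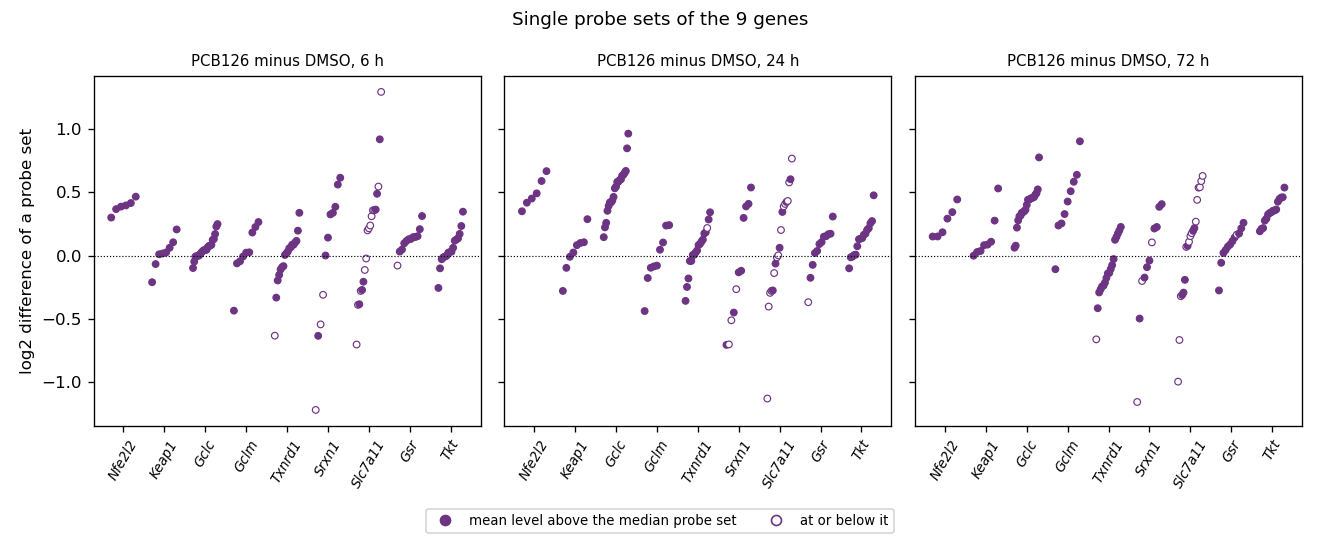
Log2 difference of PCB126 minus DMSO (vertical axis) for each probe set of the 9 genes at 6, 24 and 72 h, sorted within a gene. Filled points have a mean level above 4.03, the median over all probe sets. All points of Nfe2l2 lie above 0 at each time, those of Gclc at 24 and 72 h and those of Tkt at 72 h, while Srxn1 and Slc7a11 spread to both sides.

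The other genes of the pathway were read from 7 lists, whose medians stand against medians over all genes of -0.01, -0.02 and 0.00 at 6, 24 and 72 h. Their counts stand against shares over all genes called higher of 0.253%, 1.7% and 3.3%, and called lower of 0.241%, 3.14% and 4.14%. At an unadjusted p under 0.05 the share of all genes was 8.31%, 15.4% and 18.6%. A rise or fall of a list gene here is PCB126 against DMSO of the same time, and not a change over time. Among 16 measured NRF2 partners and regulators limma called 0 at 6 or 24 h (1 and 4 at an unadjusted p under 0.05), and at 72 h 2 were lower and 0 higher, with a median difference of -0.09. Under the 8 other settings that list had 0 to 2 called genes at 24 h, and also 0 to 2 at 72 h. Bach1, a repressor that competes with NRF2 for its elements, averaged 8.50 ± 0.07 with PCB126 at 72 h and 9.11 ± 0.09 in DMSO (SD, n = 3 arrays each). The groups were separate, a fall of Bach1 with a log2 difference of -0.61 (limma adjusted p = 0.0114). Btrc, a ubiquitin ligase adaptor, fell as well (-0.43, adjusted p = 0.0396). The call of Btrc was lost without 5 of the 6 arrays (up to 0.128) and with the mean over probe sets (0.254). Bach1 kept its call without any 1 array and lost it with the compared arrays alone (0.0818).

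In glutathione synthesis, use and recycling limma called 3 of 16 measured genes lower at 24 h and at 72 h and 0 higher, with medians of -0.11 and -0.01. At 6 h 0 were called, also at an unadjusted p under 0.05, and the median was 0.13. They were the same 3 at both times. Gss, glutathione synthetase, which completes the step after Gclc, had 8.66, 8.84 and 9.08 with PCB126 at 24 h, against 9.43, 9.34 and 9.46 in DMSO. At 72 h it had 8.74, 8.65 and 8.57 with PCB126, against 9.42, 9.31 and 9.08 in DMSO. The groups of Gss were separate at both times (-0.55, adjusted p = 0.0262, and -0.61, adjusted p = 0.00918), opposite in sign to Gclc. Leaving out any array but PCB126 24 h replicate 3 ended the 24 h call of Gss (adjusted p up to 0.13), and leaving out DMSO 72 h replicate 1 ended the later one (0.0525). Gsta4, a glutathione transferase for lipid aldehydes, was lower than in DMSO by 1.35 and 1.78. Oplah, 5-oxoprolinase of glutathione breakdown, was lower by 0.75 and 0.73. In DMSO alone Gsta4 was 1.08 higher at 72 h than at 6 h, so its gap at 72 h stood beside a higher vehicle level.

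The thioredoxin and peroxiredoxin list had 0 of 11 genes called by limma at 6, 24 or 72 h (0, 1 and 1 at an unadjusted p under 0.05), with medians of 0.16, -0.01 and 0.12. Of the 11 genes 8, 5 and 8 were above 0, and the differences ran from -0.24 to 0.30 at 6 h, -0.19 to 0.47 at 24 h and -0.06 to 0.32 at 72 h. Of 9 measured genes of the pentose phosphate pathway and NADPH supply, 0 passed at 6 h (1 at an unadjusted p under 0.05), 1 rose at 24 h and 2 rose at 72 h, with medians of 0.09, 0.01 and 0.25. Mthfd2, a mitochondrial folate enzyme, rose by 1.04 and 0.78 (adjusted p = 0.00317 and 0.016). Rpia, which feeds ribose phosphate to the step of Tkt, rose by 0.47 at 72 h (adjusted p = 0.0288). At 72 h Mthfd2 and Rpia each lost the call without 3 of the 6 arrays (up to 0.0751 and 0.134).

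Among 19 other measured NRF2 targets Nqo1 alone was called higher, at each of the 3 times. Nqo1, a quinone reductase that carries both AhR and NRF2 elements, had 10.58, 10.74 and 10.53 with PCB126 at 6 h, against 8.35, 8.86 and 8.35 in DMSO. Its differences were 2.09, 1.90 and 2.78 at 6, 24 and 72 h, each larger than that of any of the 9 genes at the same time. At 24 h Akr1b8, an aldo-keto reductase, was lower than in DMSO (-0.87, adjusted p = 0.00568). At 72 h Pir, a nuclear redox protein, was lower than in DMSO (-0.62, adjusted p = 0.0142), where it stood 0.54 higher than in DMSO at 6 h. The call of Pir was lost without PCB126 72 h replicate 2 (0.0654) and with the mean over probe sets (0.183). Hmox1, haem oxygenase, a common readout of NRF2 activity, had differences of -0.14, -0.37 and -0.03 that did not pass (adjusted p = 0.891, 0.261 and 0.958). The list's medians were 0.02, -0.17 and -0.04. With the mean over probe sets it had 2, 6 and 4 called genes at 6, 24 and 72 h, in place of 1, 2 and 2.

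Of 4 superoxide and peroxide enzymes, the superoxide dismutase Sod2 (-0.91, adjusted p = 0.0273) and catalase, Cat (-0.45, adjusted p = 0.0405), fell at 24 h. Limma called 0 of them at 6 h or 72 h (0 and 2 at an unadjusted p under 0.05), and the medians were -0.09, -0.16 and -0.03. Sod2 lost the call without 4 of the 6 arrays (up to 0.146) and Cat without each of them (0.0531 to 0.184). Cat was also not called with the mean over probe sets (-0.30, adjusted p = 0.0693) or with centred arrays (-0.41, 0.0512), nor were Sod2 (0.0958) and Cat (0.181) with the compared groups alone. The ATF4 and cysteine supply list holds genes of the amino acid response, which also drives Slc7a11. Of its 12 genes limma called 0 at 6 h (1 at an unadjusted p under 0.05), 3 rose at 24 h and 1 at 72 h, with medians of 0.13, 0.42 and 0.34. Under the 8 other settings it had 1 to 4 called genes at 24 h and 0 to 3 at 72 h. Shmt2, a mitochondrial serine enzyme, rose at both times (0.76 and 0.69, adjusted p = 0.00526 and 0.00725). Slc7a1 (0.68, adjusted p = 0.0436) and Slc7a5 (0.64, adjusted p = 0.0485), transporters of amino acids, rose at 24 h, and were lost without 4 and 5 of the 6 arrays (up to 0.188 and 0.206).

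**Figure D4:**
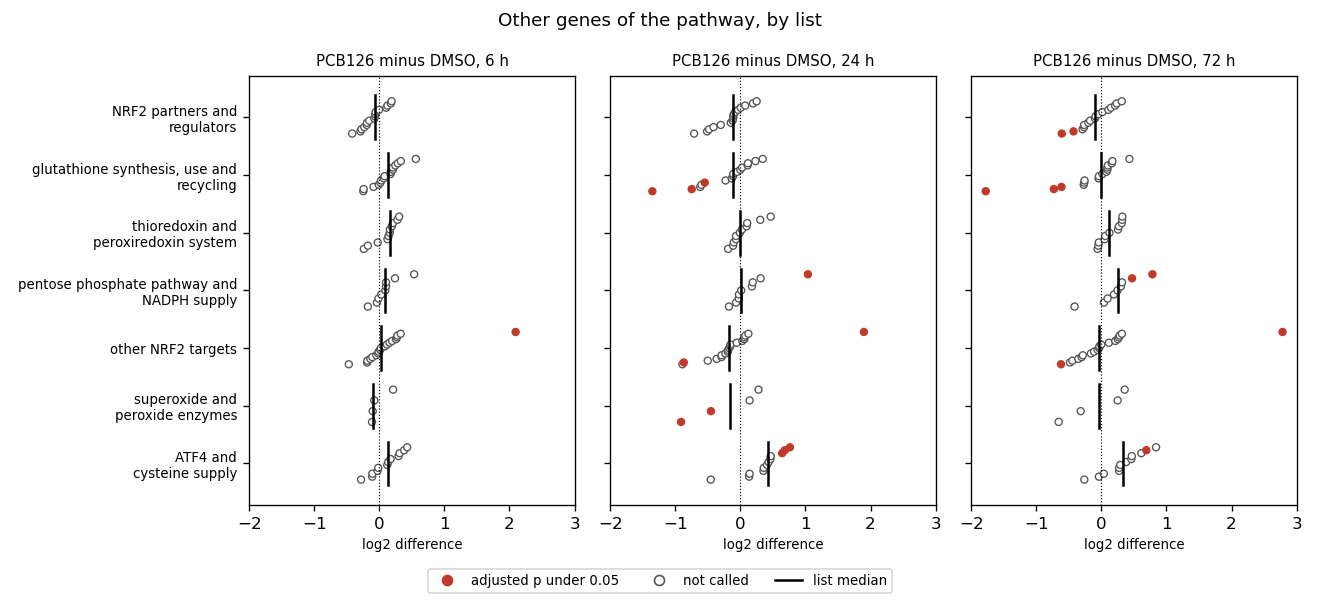
Log2 difference of PCB126 minus DMSO (horizontal axis) for the measured genes of 7 lists around NRF2 at 6, 24 and 72 h. Each point is a gene, filled red where the adjusted p was under 0.05, and black bars are list medians. The single point beyond 1.5 on the right at each time is Nqo1, and the leftmost point at 24 and 72 h is Gsta4.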

How the data were processed

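Values are log2 expression per probe set, as deposited by the authors. The submitters' processing notes name Affymetrix Power Tools 1.12.0 and RMA, a method that corrects background, normalises arrays and summarises probes and that can compress changes of dim probe sets. Further settings and the array build are not given in the sources used here. RNA was labelled with biotin, per the labels' protocols.

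Of 1044112 probe sets 223110 had 1 symbol, 3523 several and 817479 none, and only the first kind was used. Gene values were fitted with limma 3.58.1 (R 4.3.3, matrixStats 1.5.0) as 6 group means over 18 arrays, with 12 residual and 3.89 prior degrees of freedom. Tests were two-sided, and p-values were adjusted by Benjamini-Hochberg over all genes or probe sets of a comparison. Intervals are 95% intervals of a single gene. On simulated data for PCB126 against DMSO at 24 h (16988 genes), the fit recovered 69% of changes of 1 and 98% of changes of 2 on the log2 scale. Of its calls 4.57% were false, in simulated noise that was normal and independent between genes, with 200 genes changed. The false share of the real calls was not measured. The largest difference of a member with PCB126 was 0.60, and changes of that size or smaller were not simulated. For arrays, their number limits the precision.

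The members and lists were chosen with earlier results of these data known. The 9 members, the AhR genes and, per list and time, up to 3 called genes with the largest changes were named by rule. Hmox1 was named after its values were seen. Of 98 genes on the lists around NRF2 and AhR 94 were measured, 4 of them under an older symbol. Alternatives were a replicate block, other summaries and normalisations, an intensity trend, the compared groups alone, and each array left out. Replicate numbers were not taken to pair the samples. Correlations of deviations between PCB126 and DMSO arrays of 1 number and time lay between 0.00405 and 0.17. Those between arrays of different numbers at 1 time lay between -0.154 and 0.0689.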

Additional observations from a re-analysis of the deposited data

How the results depend on the processing

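Among 37 calls of single genes, 270 recomputed values under other settings kept the call and 26 lost it, 18 of them with the compared groups alone, which leaves fewer arrays to estimate the spread. With 1 array left out 169 kept it and 53 lost it, and no called value changed sign. The 37 include Nqo1, Aldh3a1, Cyp1a1 and Cyp1b1 at 6, 24 and 72 h, which lost no call. With 1 of 6 arrays left out, member calls at 24 h were lost 0 times for Nfe2l2 and 3 for Gclc. At 72 h they were lost 3 times for Gclc and 4 for Tkt. In DMSO at 72 h against 6 h they were lost 0 times for Gclm and 6 for Tkt. With the replicate number as a block, counts of called genes were 77, 878 and 1316 at 6, 24 and 72 h and 0 and 790 in DMSO at 24 h and at 72 h against 6 h. The block changed 1 call among the named genes, that of Btrc at 72 h (adjusted p = 0.0508). Every PCB126 array correlated best with the DMSO array of its own number at 24 h, but not at 6 or 72 h.

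The count of called genes was 84 at 6 h, but 178 with the mean over probe sets, 11 with the compared groups alone and 32 to 44 with 1 array left out. At 24 h it was 823, but 1256, 453 and 449 to 623. At 72 h it was 1264, but 416 with the compared groups alone. In DMSO at 24 h against 6 h it was 0, but 4 with the mean, 4 with bright probe sets alone, 5 with arrays centred on the gene median, 4 with quantile normalisation, 4 with the intensity trend, 2 with genes of at least 4 probe sets, and 0 to 1 with 1 array left out. In DMSO at 72 h against 6 h it was 703, but 1346 with the mean, 73 with the compared groups alone and 161 to 543 with 1 array left out, and quantile normalisation put the share of higher calls at 43.4%. Genes whose effect differed between times numbered 96, but 210 with the mean, 152 with centred arrays, 170 with the trend and 37 to 104 with 1 array left out. Called probe sets numbered 186 at 6 h and 4151 at 24 h, but 428 and 7283 with the trend, and 94 to 115 and 1860 to 2795 with 1 array left out. Centring on the probe set median, added after the data were seen, gave 190, 4277 and 9172 at 6, 24 and 72 h.

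Uncalled member differences turned sign as follows, and the cause was not tested. All but those of Srxn1 started within 0.2 of 0, and Srxn1 started at 0.25 and 0.33 at 6 and 24 h and at -0.26 in DMSO at 24 h. With the mean over probe sets PCB126 differences became 0.019 (Keap1), 0.020 (Gclm) and -0.030 (Srxn1) at 6 h, 0.027 (Keap1), -0.027 (Gclm), -0.11 (Srxn1) and 0.086 (Slc7a11) at 24 h, and -0.074 (Srxn1) at 72 h. In DMSO they became 0.030 (Nfe2l2) and -0.079 (Slc7a11) at 24 h and 0.028 (Nfe2l2) and 0.14 (Srxn1) at 72 h, each against 6 h. With bright probe sets alone they were 0.032 (Txnrd1, 6 h), -0.041 (Srxn1, 24 h) and 0.13 (Slc7a11, 24 h), and in DMSO 0.16 (Srxn1, 24 h), 0.033 (Gsr, 24 h) and 0.047 (Srxn1, 72 h). With centred arrays they were 0.038 (Keap1, 6 h), 0.018 (Txnrd1, 6 h) and 0.0023 (Keap1, 24 h), and in DMSO 0.00058 (Nfe2l2, 24 h), 0.047 (Gsr, 24 h), 0.14 (Nfe2l2, 72 h), 0.067 (Gclc, 72 h) and 0.042 (Srxn1, 72 h). With quantile normalisation they were 0.023 (Keap1), -0.0087 (Gclc) and 0.0059 (Txnrd1) at 6 h, and in DMSO 0.013 (Gsr, 24 h), 0.0062 (Nfe2l2, 72 h) and 0.040 (Srxn1, 72 h).

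With 1 array left out, the differences that crossed 0 were as follows. PCB126 differences spanned -0.10 to 0.11 (Keap1), -0.030 to 0.089 (Gclc), -0.13 to 0.036 (Gclm) and -0.23 to 0.15 (Txnrd1) at 6 h. At 24 h they spanned -0.15 to 0.076 (Keap1), -0.32 to 0.10 (Slc7a11) and -0.068 to 0.076 (Tkt). At 72 h they spanned -0.061 to 0.21 (Keap1), -0.30 to 0.13 (Txnrd1), -0.27 to 0.25 (Srxn1) and -0.0067 to 0.22 (Slc7a11). In DMSO they spanned -0.021 to 0.40 (Slc7a11) and -0.053 to 0.038 (Gsr) at 24 h, and -0.12 to 0.076 (Nfe2l2), -0.25 to 0.010 (Srxn1) and -0.019 to 0.12 (Gsr) at 72 h. Other uncalled PCB126 differences kept their sign but moved by over 1.5 times: Srxn1 spanned 0.13 to 0.44 at 6 h and 0.19 to 0.55 at 24 h, Slc7a11 0.073 to 0.23, Gsr 0.081 to 0.17 and Tkt 0.029 to 0.13 at 6 h, Gclm 0.098 to 0.25 and Txnrd1 0.10 to 0.31 at 24 h, and Gsr 0.10 to 0.26 and Gclm 0.30 to 0.71 at 72 h.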

Other observations

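Several list genes moved with time in DMSO alone, at 72 h against 6 h, by limma with adjusted p under 0.05 over all genes. Among all genes 3.27% were called lower and 0.865% higher. Called were 2 higher and 2 lower of 16 (glutathione), 1 lower of 11 (thioredoxin) and 1 higher of 9 (pentose phosphate). The others were 1 higher and 1 lower of 19 (other targets) and 3 higher of 12 (ATF4), with 0 of 16 regulators. The count over all genes was 703, but 73 to 1346 under other settings, for which these genes are not given. Nqo1 fell, with 7.39 ± 0.08 at 72 h and 8.52 ± 0.29 at 6 h (SD, n = 3 arrays each, adjusted p = 4.49e-04). Also lower at 72 h were Txnip, an inhibitor of thioredoxin (-0.54), Glrx, glutaredoxin (-0.84), and Ggt7 (-0.62). Higher at 72 h were Gsta4 (1.08), Pir (0.54), the amino acid transporter heavy chain Slc3a2 (0.50), Mthfd2 (1.15), the stress transcription factor Atf4 (0.99), and the serine metabolism genes Psat1 (0.80) and Shmt2 (0.63).

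Gsta4 and Pir, higher at 72 h in DMSO, were lower with PCB126 than with DMSO at 72 h (-1.78 and -0.62), and Mthfd2 and Shmt2 were higher with PCB126 there (0.78 and 0.69). These comparisons share the DMSO 72 h arrays and are not independent.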
